A study of Mus musculus with 16 samples.

Results

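Mouse oligodendrocyte precursor cells (OPCs) labelled WT for the retinoid X receptor gamma gene were compared with and without the thyroid hormone triiodothyronine (T3). The comparison took the 4 libraries labelled T3 and the 4 untreated libraries of that label, 8 of the 16 in the series, and described 19764 of 55335 listed genes, those with enough counts to test. Both groups were OPCs derived from neural stem cells by way of oligospheres, of a mixed C57BL6J/129svEmx background, taken on day 4 of monolayer culture. The treated group received T3 for 24 h, at a concentration that the sources used here do not give. The other 8 libraries, labelled RXRgKO, were described by the design text as lacking both copies of the receptor gene, again with and without T3. They entered the same main fit, so the choice of genes, the scaling and the estimated spread drew on all 16 libraries. Their own values are given below only for Rxrg and where the change with T3 is set against theirs. The labels do not say whether libraries within a group are separate cultures or animals. The p-values therefore measure only the spread between libraries of the same group, which may be technical.

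T3 enters cells through membrane transporters and is activated or inactivated by deiodinases. In the nucleus it binds thyroid hormone receptors, which sit on DNA mostly as pairs with a retinoid X receptor, recruit corepressors without hormone and coactivators with it, and can also lower the transcription of some genes. In the oligodendrocyte lineage T3 is known for timing the step from dividing precursor to myelin-forming cell, and it is a standard component of media that differentiate these cells in culture.

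Libraries held 22608322 to 35867237 counts in genes. Levels are given in CPM, the count of a gene scaled to the size of its library, and changes as log2 fold changes of T3 over untreated with their standard errors (SE). A gene was called when its Benjamini-Hochberg adjusted p, from edgeR's quasi-likelihood test over all 19764 genes, was under 0.05. Replicate 1 stood apart in both groups, with a chi-square per gene of 7.66 to 8.49 against replicates 2 to 4, which differed from each other by 1.52 to 2.12. Xist, which silences 1 X chromosome in female cells, was at 526, 1198, 1219.6 and 1382 CPM without T3 and 401, 365, 322 and 276 CPM with it in replicates 1 to 4, and the level of the Y-linked Ddx3y was 73.3, 13.9, 15.8 and 14.6 CPM without T3 and 60.6, 68.1, 78.3 and 77.9 CPM with it. In replicates 2 to 4 the treated libraries thus had less Xist and more Ddx3y than the untreated ones, so T3 and a difference between cultures cannot be told apart there from these data. In replicate 1 Xist was also lower with T3, by less, and Ddx3y was not higher. Values for replicate 1 alone are given below beside the main results.

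Rxrg (ENSMUSG00000015843, chromosome 1, 167598384 to 167639623 in GRCm38), the gene named by the genotype labels, was at 1.79, 1.48, 1.137 and 1.65 CPM without T3 and 0.885, 0.960, 0.597 and 0.371 CPM with it in replicates 1 to 4. Every treated library lay below every untreated one, with a log2 fold change of -1.10 (SE 0.24, adjusted p = 0.00908). The libraries labelled RXRgKO held more of it, at means of 4.25 CPM untreated and 4.92 CPM treated, so the genotype is named here only as the label gives it. Markers of the labelled cell type were present in all libraries. Sox10, a factor that oligodendrocyte lineage cells need throughout, was at 824, 346, 344 and 371 CPM without T3 and 797, 475, 439.7 and 428 CPM with it. The lineage factor Olig2 was at 492, 323, 329 and 323 CPM without T3 and 440.4, 307, 289 and 283 CPM with it, and the platelet-derived growth factor receptor Pdgfra, which defines precursors, was at 618, 623, 706 and 636 CPM without T3 and 449, 573, 543 and 538 CPM with it. None of these 3 was called, with adjusted p of 0.806, 0.809 and 0.722. For Pdgfra every treated library lay below every untreated one (the groups did not overlap for 15.4% of all genes tested). In a further edgeR fit with the replicate number as a block, described below, Pdgfra was called lower, at -0.31 (adjusted p = 0.0209). Sox10 and Olig2 were not called there.

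Markers of other cell types were counted too. The 18 astrocyte markers summed to 5266 to 11797 CPM untreated and, with T3, to 7015 to 19005 CPM, and in each group replicate 1 was the highest. The astrocyte filament gene Gfap was at 4728, 819, 835 and 1001 CPM without T3 and 11207, 2455, 2598 and 2834 CPM with it, not called at 1.37 (SE 0.68, adjusted p = 0.251). With the replicate number as a block in edgeR, Gfap was called, at 1.48 (adjusted p = 4.93e-06). In the main fit 1 of the 18 was called, higher (6 higher and 1 lower with the block). It was Kcnj10, whose call was lost without T3-treated replicate 1 or untreated replicate 2, 3 or 4 (adjusted p from 0.0621 to 0.0873). The 25 neuron markers summed to 2027 to 2467 CPM untreated and, with T3, to 2019 to 2032 CPM, and the 16 neural stem cell markers to 3500.1 to 4176 and 4422 to 4784 CPM. Microglia and macrophage markers summed to 21.6 to 31.0 CPM untreated and, with T3, to 17.8 to 29.8 CPM over 14 genes, 2 of them under 0.1 CPM, and the 12 endothelial markers to 10.9 to 13.0 and 13.4 to 15.7 CPM, 1 of them under 0.1 CPM. No marker of either list was at 0 in all 8 libraries. In bulk RNA, fewer cells of a type and less RNA per cell cannot be told apart, and the part these cell types had in the changes below was not tested.

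Many genes differed between the T3-treated and the untreated libraries. Of the genes tested, 1668 were called (8.44%), 980 higher (4.96%) and 688 lower (3.48%). The treated and untreated libraries did not overlap for 3050 genes (15.4%), among them 1454 of those called. The median change was 0.95 on the log2 scale over genes called higher, -0.91 over genes called lower and -0.03 over all genes tested. At an unadjusted p under 0.05 the split was even, with 2157 genes higher (10.9%) and 2162 lower (10.9%). Among the genes called, larger changes were mostly rises: 466 genes were called higher and 295 lower by at least 2-fold, 136 and 31 by at least 4-fold, 45 and 5 by at least 8-fold, and 10 and 1 by at least 16-fold. Genes called higher together went from 65918 to 121281 CPM, and genes called lower from 14346 to 8368 CPM.

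**Figure D1:**
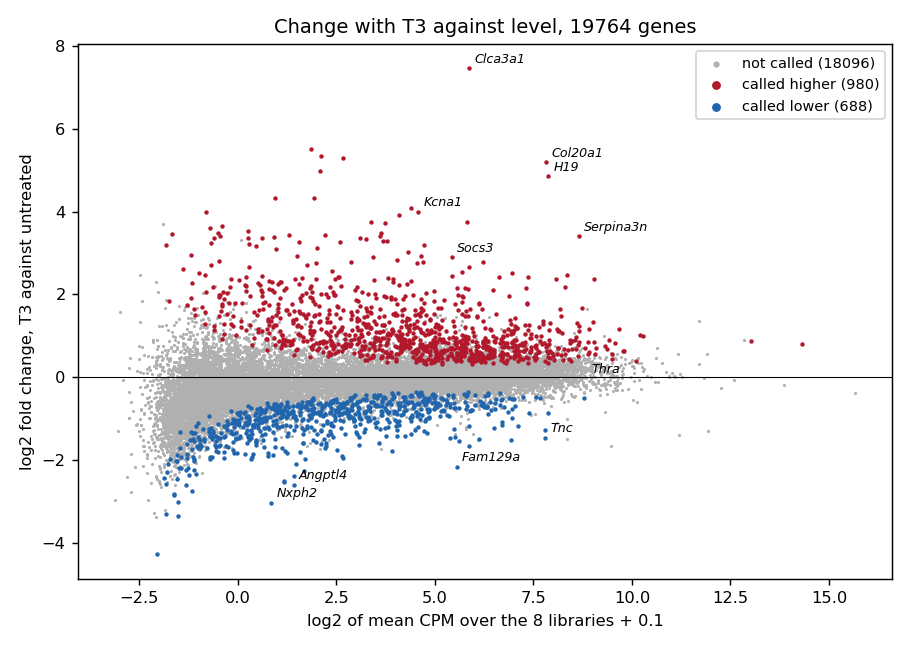
Each point is 1 of 19764 genes, with the log2 of its mean CPM (plus 0.1) over the 8 WT-labelled libraries on the horizontal axis and the log2 fold change of T3 over untreated on the vertical axis. The 980 genes called higher (red) reach 7.45 at Clca3a1 and spread over all levels, while the 688 called lower (blue) lie mostly at low and middle levels.

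How many genes were called depended on the libraries kept and on the fit. With the replicate number as a block 17319 genes were tested, 2777 called higher (16.0%) and 2307 lower (13.3%). The block takes libraries of the same number as pairs, and the check described under processing could not show whether replicates 2 to 4 are paired. Counts for gene lists are given with the block below where it moved them by over 1.5 times, to be read against these shares. Without 1 library the count ran from 997 (without untreated replicate 2) to 2475 (without untreated replicate 1); leaving out untreated replicate 3 gave 998, untreated replicate 4 1009 and T3-treated replicate 4 1065. Of the 1668 genes, 809 (48.5%), 539 higher and 270 lower, kept their call and direction in all of 10 further fits, 8 that each left out 1 library, 1 that left out both replicate 1 libraries and 1 with the replicate number as a block (a gene that a fit could not test counts as not kept). Below, a call is described as stable when it belongs to these 809, and every call named below is stable unless marked otherwise. In a further fit counts were summed into 1 library for replicate 1 and 1 for replicates 2 to 4 in each treatment, which takes the libraries of a set as repeats. The RXRgKO-labelled libraries entered it too, summed within each treatment by whether Xist was under 10 CPM. With these summed counts 15 genes were called, all higher. These were Clca3a1, Kcna1, Gbp3, Prph, Rpe65, Bcl3, Prokr1, C1qtnf1, Syt12, Cacng5, Socs3, Pcolce, Col20a1, Thbs2 and Glycam1. Of the 24773 genes tested in that fit, 635 were higher and 654 lower at an unadjusted p under 0.05. A share of 0.05 of genes passes that limit when none has changed, so these 2 counts alone do not show change.

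The largest rise was that of Clca3a1 (ENSMUSG00000056025, chromosome 3, 144729677 to 144760977), a secreted regulator of chloride channels. It was at 1.06, 0.676, 0.421 and 0.479 CPM without T3 and 173, 90.5, 100.1 and 103 CPM with it in replicates 1 to 4. No library overlapped between the groups, and the log2 fold change was 7.45 (SE 0.37, adjusted p = 5.67e-09). Col20a1 (ENSMUSG00000016356, chromosome 2, 180986535 to 181018363), a collagen associated with fibrils, was at 20.6, 9.29, 9.64 and 8.92 CPM without T3 and 572, 426, 394 and 379 CPM with it, a change of 5.19 (SE 0.40, adjusted p = 8.57e-07). Replicate 1 was the highest library of Col20a1 in both groups, and a further annotated gene, BX649560.1, overlaps it, so reads shared between the pair are uncertain.

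Kcna1 (ENSMUSG00000047976, chromosome 6, 126640397 to 126646384), a voltage-gated potassium channel subunit of axons and myelinated fibres, had the smallest p of all genes. It was at 2.80, 2.45, 2.61 and 3.22 CPM without T3 and 57.0, 42.1, 40.8 and 37.6 CPM with it, with a change of 4.000 (SE 0.18, adjusted p = 3.12e-09). The libraries of each group were close together, from 2.45 to 3.22 CPM and from 37.6 to 57.0 CPM. Gbp3, an interferon-inducible GTPase, was at 2.195, 1.73, 2.57 and 2.83 CPM without T3 and 49.6, 35.4, 36.1 and 37.1 CPM with it, a change of 4.08 (SE 0.28, adjusted p = 2.61e-07). Rpe65, the retinoid isomerase of the visual cycle, was at 0.0813, 0.253, 0.295 and 0.174 CPM without T3 and 10.7, 6.53, 6.87 and 8.78 CPM with it, a change of 5.33 (SE 0.38, adjusted p = 3.67e-07), and peripherin (Prph), a filament of peripheral neurons, was at 0.163, 0.0845, 0.0421 and 0.305 CPM without T3 and 9.86, 5.91, 5.25 and 6.43 CPM with it, a change of 5.50 (SE 0.43, adjusted p = 8.71e-07). Lactoperoxidase (Lpo), at 0.650, 0.169, 0.0842 and 0.305 CPM without T3 and 22.2, 10.7, 7.72 and 7.997 CPM with it, changed by 5.30 (SE 0.51, adjusted p = 7.00e-06). For all 3 the untreated libraries lay under 1 CPM, so these rises start from a few counts.

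Trh (ENSMUSG00000005892, chromosome 6, 92242061 to 92244650) encodes thyrotropin-releasing hormone, which in the hypothalamus is repressed by T3. In these cultures it was at 0, 0.422, 0.379 and 0.609 CPM without T3 and 1.36, 7.64, 9.94 and 9.36 CPM with it, higher in every treated library, with a change of 4.32 (SE 0.65, adjusted p = 4.46e-04). Replicate 1 had the lowest value in each group. Nt5e, the ectoenzyme CD73 that makes adenosine, went from 2.08 ± 1.90 to 31.5 ± 3.88 CPM (SD, n = 4), a change of 3.91 (SE 0.37, adjusted p = 5.55e-06), and Cacng5, an auxiliary subunit of AMPA-type glutamate receptors, from 1.43 ± 0.546 to 19.3 ± 1.22 CPM, a change of 3.75 (SE 0.27, adjusted p = 4.47e-07). H19, an imprinted long non-coding RNA, was at 28.5, 11.1, 9.77 and 13.5 CPM without T3 and 625, 416, 381 and 394 CPM with it, a change of 4.85 (SE 0.46, adjusted p = 5.67e-06).

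**Figure D2:**
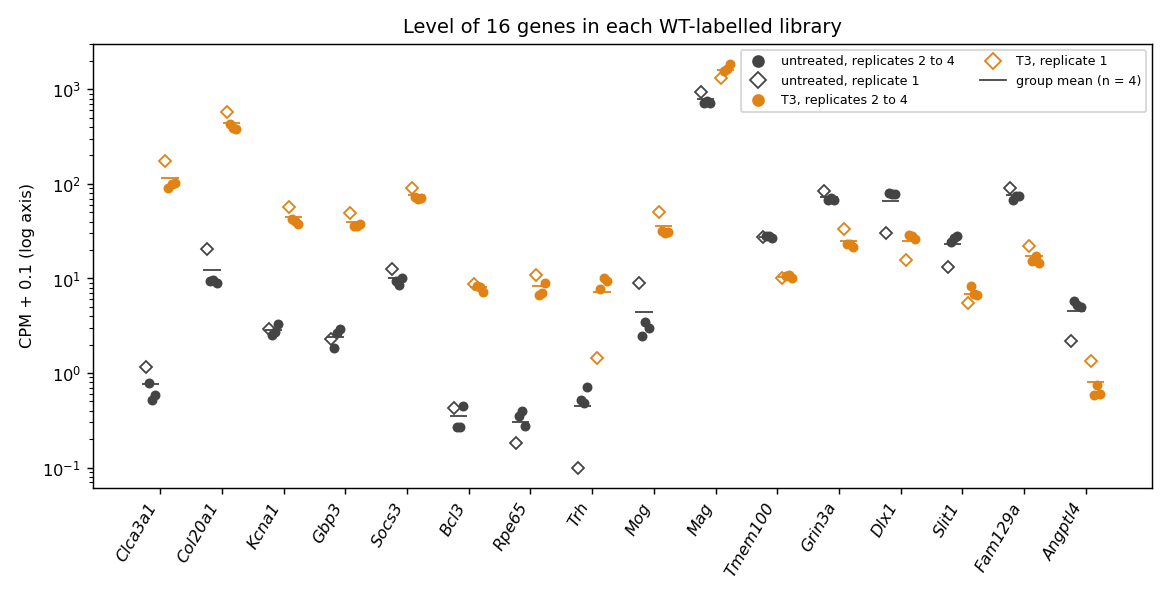
Level of 16 genes in CPM plus 0.1 on a log axis in each untreated (grey) and T3-treated (orange) WT-labelled library, with replicate 1 as open diamonds, replicates 2 to 4 as filled circles and the mean of 4 as a line. The genes from Clca3a1 to Mag were higher and those from Tmem100 to Angptl4 lower in every treated library than in every untreated one.

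From near silence, 16 genes went from a mean under 0.5 CPM to at least 2 CPM: Lpo, Rpe65, Bcl3, Trh, Prph, C1qtnf1, Gm12530, Serpina3k, Gm35455, Steap4, Ninj2, Cfi, Fstl4, Gldn, Il23a and Serpina3i. They include Gldn, which organises sodium channels at nodes of Ranvier, Cfi, a protease of the complement system, and Ninj2, an adhesion molecule of glia. The call of Il23a was lost without untreated replicate 2 or T3-treated replicate 4 (adjusted p = 0.0535 and 0.0531), and that of Steap4 without T3-treated replicate 1 or untreated replicate 2, 3 or 4 (adjusted p from 0.0585 to 0.0704) and without both replicate 1 libraries (adjusted p = 0.105). In the other direction 1 gene passed the same limits, Nxph2, a secreted ligand of neurexins. Nxph2 was at 0.163, 4.10, 4.63 and 3.13 CPM without T3 and 0.221, 0.480, 0.384 and 0.412 CPM with it, a change of -3.02 (SE 0.69, adjusted p = 0.0104), and the groups overlapped, because untreated replicate 1 was as low as the treated libraries. Nxph2 was picked after its values were seen.

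The promoters of the largest changes were read from RefSeq on GRCm38.p6, in windows of 300 bases that reach from upstream of each listed start to just past it, for 21 of the most changed genes and a few T3 response genes. The hexamer AGGTCA, the core of the sequence that thyroid hormone receptors and related nuclear receptors bind, was searched on both strands (TGACCT on the other). It stood in the promoters of 4 of the 21: Col20a1, Trh, Gucy2f and Stat5a. For comparison, Clca3a1, the largest rise, is shown with no match, Col20a1 and Trh with a match on the minus strand of the gene, and Gucy2f, a photoreceptor guanylate cyclase that fell from 2.54 ± 1.09 to 0.680 ± 0.189 CPM (log2 fold change -1.90 (SE 0.39, adjusted p = 0.00498)), with a match on its own strand. Each line runs 5′ to 3′ along the gene, and capitals mark the hexamer. The windows are chr3:144760928-144761227 (minus strand), chr2:180986285-180986584 (plus strand), chr6:92244601-92244900 (minus strand) and chrX:142196887-142197186 (minus strand).
Clca3a1: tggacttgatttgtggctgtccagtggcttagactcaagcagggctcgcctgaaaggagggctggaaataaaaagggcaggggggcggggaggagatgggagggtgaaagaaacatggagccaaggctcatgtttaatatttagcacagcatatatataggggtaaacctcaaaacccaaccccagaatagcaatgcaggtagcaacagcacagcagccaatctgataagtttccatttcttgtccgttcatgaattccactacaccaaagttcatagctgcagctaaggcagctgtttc
Col20a1: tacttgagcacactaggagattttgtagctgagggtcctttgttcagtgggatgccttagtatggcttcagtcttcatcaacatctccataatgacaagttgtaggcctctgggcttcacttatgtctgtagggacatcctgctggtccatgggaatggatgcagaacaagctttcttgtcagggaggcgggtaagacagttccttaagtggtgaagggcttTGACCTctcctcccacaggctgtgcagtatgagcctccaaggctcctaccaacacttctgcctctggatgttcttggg
Trh: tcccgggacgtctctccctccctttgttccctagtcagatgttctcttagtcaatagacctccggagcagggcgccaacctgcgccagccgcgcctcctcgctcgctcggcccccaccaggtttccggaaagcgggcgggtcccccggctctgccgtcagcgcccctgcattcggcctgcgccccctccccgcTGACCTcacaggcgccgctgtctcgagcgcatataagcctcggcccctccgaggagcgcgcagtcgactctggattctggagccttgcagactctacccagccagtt
Gucy2f: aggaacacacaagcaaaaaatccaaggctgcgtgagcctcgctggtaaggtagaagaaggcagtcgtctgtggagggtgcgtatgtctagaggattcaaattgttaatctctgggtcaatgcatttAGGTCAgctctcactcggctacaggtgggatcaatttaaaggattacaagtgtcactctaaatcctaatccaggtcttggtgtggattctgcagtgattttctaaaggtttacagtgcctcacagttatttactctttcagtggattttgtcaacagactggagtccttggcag

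The hexamer was in 18.1% of the 27025 genes' promoters in the table and in 14.8% of the 11908 tested protein-coding genes that had one. It was in 16.2% of 691 genes called higher, in 13.4% of 397 called lower and in 19.5% of the 82 that rose at least 4-fold. A direct repeat of AGGNCA with a spacer of 4 bases, again on both strands, was in 0.292% of all promoters, 0.235% of those tested, 3 genes called higher (0.434%) and 0 called lower. A match is a description of letters in a 300-base window, not a bound site.

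Among the genes that sense and handle the hormone, 13 were tested, 1 rose and 2 fell (1 higher and 4 lower with the block). The falls were those of Rxrg, given above, and Slco1c1. The T3 receptor genes Thra and Thrb were not called. Thra was at 641, 374, 402 and 418 CPM without T3 and 520.0, 445, 424 and 431 CPM with it, a change of -0.01 (SE 0.19, adjusted p = 0.981), and Thrb was at 14.5, 14.5, 14.2 and 14.4 CPM without T3 and 24.2, 16.2, 17.5 and 15.7 CPM with it, a change of 0.35 (SE 0.13, adjusted p = 0.117). Treated Thrb libraries lay above all untreated ones, but by little outside replicate 1. Dio3, the deiodinase that inactivates T3, was at 0.163, 0.0845, 0.295 and 0.218 CPM without T3 and 1.67, 2.06, 2.09 and 2.10 CPM with it, a change of 3.35 (SE 0.44, adjusted p = 1.29e-04), and Dio2, the deiodinase that makes T3, was at 40.8, 19.98, 23.5 and 25.4 CPM without T3 and 32.7, 37.5, 36.1 and 31.7 CPM with it, not called at 0.33 (SE 0.21, adjusted p = 0.378). Slco1c1, a thyroid hormone transporter, was at 2.76, 6.76, 6.44 and 5.01 CPM without T3 and 3.03, 1.87, 1.45 and 2.31 CPM with it. It fell, at -1.26 (SE 0.29, adjusted p = 0.0102), although the groups overlapped through untreated replicate 1. Of 15 corepressors and coactivators 2 rose, Hr, a corepressor itself induced by T3 in brain, and Nrip1 (0.72, SE 0.16), with an adjusted p of 0.0509 without untreated replicate 3. Hr was at 61.5, 26.8, 29.6 and 29.4 CPM without T3 and 291, 197, 187 and 166 CPM with it, a change of 2.51 (SE 0.31, adjusted p = 8.29e-05).

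Of 23 genes described as T3-responsive in neural cells 11 were called higher and 12 were not called (median 0.70, 18 of 23 above 0; 12 higher and 1 lower at an unadjusted p under 0.05, 11 and 0 with DESeq2). Klf9, a transcription factor that T3 receptors are known to induce, was at 50.4, 19.3, 23.5 and 22.3 CPM without T3 and 123, 83.2, 80.0 and 76.4 CPM with it, a change of 1.65 (SE 0.29, adjusted p = 0.00182). Others were the clock output factor Dbp (1.28, SE 0.16), the laminin receptor subunit Itga7 (1.48, SE 0.16), the hyaluronan-binding protein Itih3 (1.62, SE 0.16) and the retinal dehydrogenase Aldh1a1 (2.39, SE 0.50). The call of Dgkg, a diacylglycerol kinase, was lost without untreated replicate 4 (adjusted p = 0.0622) and without both replicate 1 libraries (adjusted p = 0.0641). The list was assembled from general knowledge with results of these libraries known, so its count is no independent evidence. It also shares called members with other lists. Bcl3 and Stat5a are counted again among the JAK-STAT and NF-kappaB genes below and Gbp3 among the interferon response genes. Dio3 and Hr were counted in the lists above. Klf11, a repressor of the same family as Klf9, moved the other way, at 30.9, 30.8, 32.7 and 32.0 CPM without T3 and 11.9, 14.1, 14.5 and 12.4 CPM with it, a fall of -1.26 (SE 0.14, adjusted p = 3.25e-05).

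Most of the myelin genes listed rose. Of 36 structural genes of myelin and mature oligodendrocytes, 22 were called higher and 14 were not called (24 higher and 0 lower with DESeq2, 26 and 1 at an unadjusted p under 0.05), and 11 of the 22 calls were stable. Their median change was 1.04, against -0.03 over all genes tested. Summed over the list, the untreated libraries held 19701, 12669, 12963 and 12108 CPM and the treated ones 21311, 25373, 25714 and 26303 CPM. All treated libraries were higher than all untreated ones, but the sum differed little between treatments in replicate 1. The median change of the list was 0.54 in replicate 1 and 1.138 over replicates 2 to 4.

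Opalin, a membrane protein of late oligodendrocytes, was at 3.70, 1.31, 2.27 and 1.04 CPM without T3 and 34.9, 18.97, 18.4 and 16.8 CPM with it, a change of 3.41 (SE 0.34, adjusted p = 1.09e-05). Mog, a protein of the outermost myelin layer, was at 8.82, 2.37, 3.37 and 2.87 CPM without T3 and 49.8, 31.6, 30.2 and 30.5 CPM with it, a change of 3.02 (SE 0.34, adjusted p = 3.30e-05). Both were low without T3 and rose in replicate 1 as well. Other stable rises were those of transferrin (Trf; 2.12, SE 0.28), the connexin Gjc3 (1.76, SE 0.26), the homeobox factor Nkx6-2 (1.82, SE 0.33) and Hapln2 (1.499, SE 0.24), a link protein of the nodal matrix.

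More abundant myelin genes rose by less. Mag, an adhesion molecule facing the axon, was at 933, 723, 755 and 718 CPM without T3 and 1332, 1563, 1633 and 1848 CPM with it, a change of 1.03 (SE 0.23, adjusted p = 0.00846), and Cldn11, the tight junction protein of myelin, at 669.8, 433, 456 and 423 CPM without T3 and 1167, 1073, 1081 and 1169 CPM with it, a change of 1.18 (SE 0.25, adjusted p = 0.00574). Myrf, a transcription factor that drives myelin genes, was at 469.5, 270.0, 269 and 287 CPM without T3 and 699.7, 524, 476 and 432 CPM with it and not called, at 0.72 (SE 0.33, adjusted p = 0.207). With the replicate number as a block in edgeR, Myrf was called higher, at 0.73 (adjusted p = 2.02e-04).

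Of 26 lineage factors 2 rose and 4 fell (6 higher and 8 lower with the block). The rises were Nkx6-2 and Zfp536 (1.48, SE 0.30), a zinc finger factor. The falls included Hes5, Id4 and Sox5, from -0.54 to -0.78. None of these 3 calls was stable: each was lost without T3-treated replicate 2, 3 or 4, at adjusted p from 0.0505 (Hes5) to 0.0857 (Sox5), and those of Sox5 and Hes5 also without untreated replicate 2, 3 or 4. Of 22 OPC markers 4 were called lower and 18 were not called, with a median of -0.35 (7 lower and 0 higher at an unadjusted p under 0.05, 4 and 0 with DESeq2, 3 higher and 13 lower of 21 tested with the block). Tmem100, a membrane protein of precursors and endothelium, was at 27.1, 28.1, 27.7 and 26.8 CPM without T3 and 9.96, 10.4, 10.7 and 10.1 CPM with it, a fall of -1.42 (SE 0.11, adjusted p = 8.71e-07). The 4 libraries of each group were close together and the groups far apart. Egfr, a growth factor receptor, was at 114, 121, 129 and 125 CPM without T3 and 105, 71.9, 66.1 and 64.9 CPM with it, a fall of -0.67 (SE 0.14, adjusted p = 0.00699). The other calls, Cspg5 and Rlbp1, were not stable. They were lost in 7 of 8 fits that left out 1 library, at adjusted p of 0.0769 to 0.143 for Cspg5 (kept without T3-treated replicate 1, and 0.0691 without both replicate 1 libraries) and 0.052 to 0.116 for Rlbp1 (kept without untreated replicate 1).

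None of 32 cell cycle genes was called by edgeR, in either direction, and DESeq2 called 0 as well (0 higher and 1 lower at an unadjusted p under 0.05, 0 higher and 6 lower with the block). Their median was -0.14, and 2 of 32 lay above 0. Mki67, a marker of dividing cells, was at 227, 149, 167 and 152 CPM without T3 and 226, 139, 122 and 115 CPM with it, with groups that overlapped (-0.21 (SE 0.21, adjusted p = 0.615)). Of 12 D-type cyclins and their kinases and inhibitors 2 were lower (2 higher and 3 lower with the block), Ccnd2 (-0.86, SE 0.19) and Cdk6, which was lost at adjusted p of 0.0501 to 0.0843 without untreated replicate 1 or 3 or T3-treated replicate 3 or 4.

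Of 25 genes of cholesterol synthesis and uptake, 8 were called higher, 4 of them stable, and none lower by edgeR (19 and 0 at an unadjusted p under 0.05, 12 and 0 with DESeq2). The median was 0.59, and 24 of 25 lay above 0. With the block 24 were called higher. Hsd17b7, a sterol reductase, was at 79.6, 65.9, 73.6 and 68.6 CPM without T3 and 186, 275, 268 and 269.5 CPM with it, a change of 1.79 (SE 0.14, adjusted p = 5.25e-07), and the isomerase Ebp was at 20.2, 17.6, 18.8 and 16.7 CPM without T3 and 29.6, 40.1, 39.7 and 41.6 CPM with it, a change of 1.04 (SE 0.12, adjusted p = 4.05e-05). For both the untreated libraries lay close together and treated replicate 1 was the lowest of its group. Pmvk (0.74, SE 0.17) and Acat2 (0.72, SE 0.16) were the other stable rises. Of 21 enzymes of galactolipid and sphingolipid synthesis 5 were higher (12 higher and 0 lower with the block), with the elongase Elovl7 (0.74, SE 0.15) stable.

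Genes of fat burning and fasting moved in both directions. Angptl4, a secreted inhibitor of lipoprotein lipase, was at 2.07, 5.62, 5.10 and 4.88 CPM without T3 and 1.23, 0.480, 0.640 and 0.495 CPM with it, a fall of -2.58 (SE 0.57, adjusted p = 0.00875). Pdk4, which blocks the use of pyruvate, fell as well, by -1.18 (SE 0.27, adjusted p = 0.0103). Both are among the textbook targets of the peroxisome proliferator-activated receptors, which were not examined here as a set. In the same list the peroxisomal enzyme Ehhadh (1.40, SE 0.25) and the mitochondrial carrier Ucp2 (1.15, SE 0.26) rose, and of its 20 members 2 rose and 3 fell (5 higher and 5 lower with the block). Txnip, a glucose-induced inhibitor of thioredoxin, was at 194, 178, 180.3 and 169 CPM without T3 and 45.4, 62.2, 68.6 and 77.3 CPM with it, a fall of -1.51 (SE 0.17, adjusted p = 3.98e-05), and the antisense-annotated Gm15441 overlaps it. Of 25 respiratory chain genes none was called by edgeR (5 higher and 0 lower at an unadjusted p under 0.05, 3 and 0 with DESeq2, 11 higher and 0 lower with the block), although all 25 lay above 0. The median of that list was -0.01 in replicate 1 and 0.36 over replicates 2 to 4.

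Some genes of cytokine signalling rose. Of 25 JAK-STAT and NF-kappaB genes 7 were called higher, all stable, and none lower by edgeR (8 and 2 at an unadjusted p under 0.05, 8 and 0 with DESeq2, 10 higher and 1 lower with the block), with a median of 0.17 and 17 of 25 above 0. Bcl3, a nuclear partner of NF-kappaB, was at 0.325, 0.169, 0.168 and 0.348 CPM without T3 and 8.69, 8.26, 8.06 and 7.13 CPM with it, a change of 4.97 (SE 0.41, adjusted p = 1.37e-06). Socs3, a feedback inhibitor of the JAK kinases, was at 12.5, 9.38, 8.42 and 10.1 CPM without T3 and 90.2, 72.9, 69.2 and 70.2 CPM with it, a change of 2.90 (SE 0.20, adjusted p = 2.74e-07). All 4 treated libraries of Socs3 lay far above every untreated one.

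Stat3, a transcription factor downstream of interleukin 6-type cytokines, was at 188, 118, 125 and 129 CPM without T3 and 466, 323, 297 and 299 CPM with it, a change of 1.31 (SE 0.23, adjusted p = 0.00155), and its neighbour Stat5a, downstream of growth hormone and prolactin, at 1.91, 1.06, 0.842 and 1.22 CPM without T3 and 11.3, 4.85, 4.44 and 5.48 CPM with it, a change of 2.38 (SE 0.32, adjusted p = 1.95e-04). The annotations of Stat3 and Stat5a overlap on opposite strands and the strand setting of the counting is not given in the sources used here, so some reads of the more abundant Stat3 could be counted with Stat5a. Jak3 (1.26, SE 0.27) and Socs2 (1.22, SE 0.22) rose as well. Of 26 interferon response and MHC class I genes 5 were higher and none lower by edgeR (9 and 0 at an unadjusted p under 0.05, 8 and 0 with DESeq2, 11 higher and 0 lower of 23 tested with the block): Gbp3, Gbp2 (1.77, SE 0.37), Gbp7 (1.28, SE 0.20), H2-D1 (1.17, SE 0.24) and Irf1 (0.94, SE 0.14). Guanylate-binding proteins and MHC class I genes have near copies, so their reads may be shared. Receptors for cytokines were among the rises, with Il13ra1 (1.98, SE 0.29), Il1r1 (1.43, SE 0.22) and Il1rap (1.29, SE 0.21), and 7 of 65 interleukin and chemokine genes and receptors rose and 2 fell.

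Of 23 serpins, a family of protease inhibitors, 7 were higher, all stable, and none lower by edgeR (9 and 1 at an unadjusted p under 0.05, 7 and 0 with DESeq2, 12 higher and 1 lower of 21 tested with the block). Of these, 6 belong to the Serpina3 cluster of chromosome 12, whose members are closely related in sequence, so how reads were assigned among them is uncertain. Serpina3n, a marker of reactive astrocytes and of stressed oligodendrocytes, was at 159, 38.2, 37.9 and 42.8 CPM without T3 and 1383, 531, 514 and 513 CPM with it, a change of 3.40 (SE 0.50, adjusted p = 3.86e-04). Serpina3f was at 5.28, 0.972, 1.47 and 1.74 CPM without T3 and 45.2, 16.04, 16.04 and 16.04 CPM with it, a change of 3.30 (SE 0.49, adjusted p = 3.69e-04), and Serpina3m, which overlaps Serpina3k, at 5.89, 0.803, 1.68 and 1.70 CPM without T3 and 47.2, 15.7, 16.8 and 18.9 CPM with it, a change of 3.28 (SE 0.51, adjusted p = 5.47e-04). In all 3, replicate 1 was the highest library in both groups, as it was for Gfap. The remaining call was Serping1 (1.37, SE 0.26), the inhibitor of complement C1.

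Matrix genes moved in both directions. Of 44 collagens 7 rose and 2 fell (15 higher and 4 lower of 42 tested with the block). The median change of the collagens was 0.04, and 24 of 44 lay above 0. The summed collagen level was 1029, 703.5, 745 and 757 CPM without T3 and 3341, 2008, 1888 and 1935 CPM with it, so every treated library was above every untreated one, and most of that difference lay in Col20a1, Col16a1 and Col11a1. The largest rises after Col20a1 were Col16a1, at 137, 82.6, 89.7 and 91.4 CPM without T3 and 793, 506, 452 and 452 CPM with it (2.46 (SE 0.29, adjusted p = 5.06e-05)), and the fibrillar Col11a1, at 139, 64.6, 71.3 and 73.4 CPM without T3 and 914, 314, 296 and 291 CPM with it (2.38 (SE 0.42, adjusted p = 0.00163)). Col27a1 (-0.84, SE 0.16) and Col26a1 (-0.89, SE 0.16) fell. Pcolce, which enhances the trimming of procollagen, went from 1.12 ± 0.172 to 10.7 ± 2.44 CPM, a change of 3.26 (SE 0.24, adjusted p = 5.25e-07), and the annotations of Fbxo24 and Gm36266 overlap it.

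Tenascins went in opposite directions. Tnc, a matrix protein of immature glia, was at 329, 308, 342 and 332 CPM without T3 and 181, 95.7, 98.1 and 104 CPM with it, a fall of -1.45 (SE 0.34, adjusted p = 0.0120) that was not stable, with adjusted p of 0.0503 and 0.0515 without T3-treated replicate 3 or 4. Tnn, or tenascin W, was at 0.976, 0.929, 0.632 and 0.696 CPM without T3 and 6.04, 7.25, 7.30 and 7.71 CPM with it, a change of 3.12 (SE 0.38, adjusted p = 7.67e-05). Thbs2, a thrombospondin secreted by glia, was at 3.98, 3.08, 3.45 and 3.61 CPM without T3 and 20.3, 16.6, 17.5 and 17.9 CPM with it, a change of 2.35 (SE 0.15, adjusted p = 1.69e-07). Of 22 integrins 5 were higher and none lower by edgeR (9 and 0 at an unadjusted p under 0.05, 8 and 0 with DESeq2, 10 higher and 1 lower of 21 tested with the block), of which Itga4 (1.56, SE 0.22), Itga7 and Itgb3 (1.02, SE 0.22) were stable. Of 56 ADAM and matrix metalloproteases 9 rose and 2 fell (15 higher and 8 lower of 47 tested with the block). Adamts2, which trims procollagens, rose (1.93, SE 0.25), as did Adamts1 (0.94, SE 0.11) and the related Adamtsl1 (1.91, SE 0.25), Adamtsl3 (1.27, SE 0.22) and Adamtsl4 (1.92, SE 0.19), while Adamts18 fell (-1.36, SE 0.27).

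More transmitter receptor genes fell than rose. Of 42 glutamate and GABA receptor genes 14 were lower and 2 higher (5 higher and 22 lower of 38 tested with the block), with a median of -0.47 (-0.26 in replicate 1 and -0.50 over replicates 2 to 4). Grin3a, an NMDA receptor subunit that precursors express, was at 83.5, 67.9, 71.1 and 66.7 CPM without T3 and 33.1, 23.1, 22.9 and 21.2 CPM with it, a fall of -1.53 (SE 0.24, adjusted p = 7.41e-04). The NMDA subunit Grin2b was at 18.01, 40.8, 44.5 and 41.6 CPM without T3 and 12.5, 20.9, 17.5 and 18.8 CPM with it, a fall of -1.06 (SE 0.26, adjusted p = 0.0163); the groups overlapped, and the call was lost at adjusted p of 0.0549 to 0.0648 without untreated replicate 2, 3 or 4. GABA receptor subunits that fell with a stable call were Gabra2, Gabra3, Gabrb1 and Gabrb2, from -0.82 to -1.23. The exceptions were the metabotropic receptor Grm5, at 50.7, 36.9, 40.6 and 39.4 CPM without T3 and 148, 97.0, 96.1 and 91.3 CPM with it (1.37 (SE 0.16, adjusted p = 5.96e-05)), and the NMDA subunit Grin2c (1.32, SE 0.24). For Grm5, 4 other genes that were tested overlap it.

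Of 25 neuron markers 8 were lower and 1 higher (2 higher and 18 lower with the block), with a median of -0.16 in replicate 1 and -0.78 over replicates 2 to 4. Gad2, which makes GABA, was at 4.67, 21.2, 22.1 and 22.5 CPM without T3 and 3.70, 7.73, 6.70 and 5.65 CPM with it, a fall of -1.57 (SE 0.35, adjusted p = 0.00836), and the interneuron factor Dlx1 was at 30.4, 80.7, 77.3 and 78.2 CPM without T3 and 15.7, 28.6, 28.2 and 26.1 CPM with it, a fall of -1.44 (SE 0.26, adjusted p = 0.00195). In both genes untreated replicate 1 was far below the other untreated libraries, and for Gad2 it fell within the treated range. Dlx1as, antisense to Dlx1, overlaps it. The marker that rose was Gap43, a growth cone protein that precursors also express, at 79.1, 98.0, 95.0 and 89.8 CPM without T3 and 186, 156, 162 and 172 CPM with it (0.90 (SE 0.12, adjusted p = 1.48e-04)). Homeobox genes had 7 of 32 lower (2 higher and 11 lower of 17 tested with the block), among them Lhx6 (-1.71, SE 0.24) and Lhx9 (-1.62, SE 0.29), and 1 higher, Nkx6-2. The neuropeptides somatostatin (Sst; -2.25, SE 0.43) and prodynorphin (Pdyn; -1.60, SE 0.35) fell.

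Potassium channels had 7 of 79 higher and 12 lower (11 higher and 21 lower of 69 tested with the block). Beside Kcna1, the inward rectifier Kcnj12 was at 3.05, 1.94, 1.60 and 1.96 CPM without T3 and 13.3, 8.88, 10.03 and 7.30 CPM with it, a change of 2.21 (SE 0.39, adjusted p = 0.00191), and Kcna5 (2.29, SE 0.33) and Kcnh1 (1.84, SE 0.22) rose. The background channel Kcnk2 was at 62.7, 74.1, 81.8 and 81.4 CPM without T3 and 46.4, 40.2, 41.6 and 42.5 CPM with it, a fall of -0.81 (SE 0.14, adjusted p = 0.00116), and Kcnc2 (-1.34, SE 0.25), Kcnk3 (-1.44, SE 0.30) and Kcnn1 (-0.86, SE 0.15) fell. Among 54 sodium, calcium and chloride channel genes 4 rose and 5 fell (9 higher and 13 lower of 48 tested with the block), with the calcium channel subunit Cacna2d3 (1.89, SE 0.17) rising and the sodium channel Scn1a (-1.10, SE 0.18) falling. Of 304 solute carriers 25 rose and 15 fell (13.2% called, against 8.44% over all genes tested; 68 higher and 35 lower of 253 tested with the block), with the phosphate carriers Slc34a3 (2.72, SE 0.30) and Slc20a2 (1.20, SE 0.13) and the carnitine carriers Slc22a4 (1.62, SE 0.33) and Slc22a5 (0.77, SE 0.12) among the rises. The vesicular glutamate transporter Slc17a8 (-2.39, SE 0.53) and the manganese exporter Slc30a10 (-1.18, SE 0.16) were among the falls.

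Guidance, Notch and Wnt genes had calls in both directions. Of 71 guidance genes 3 were higher and 8 lower (20 higher and 21 lower of 66 tested with the block), where 4.96% and 3.48% of all genes tested were. Slit1, a repellent of growing axons, was at 13.0, 23.9, 26.7 and 28.2 CPM without T3 and 5.34, 8.26, 6.74 and 6.64 CPM with it, a fall of -1.77 (SE 0.22, adjusted p = 9.00e-05). The ephrin Efnb1 (-1.19, SE 0.22) fell and the semaphorin Sema3c (2.04, SE 0.39) and netrin-G2 (Ntng2; 1.95, SE 0.29) rose. Of 20 Notch pathway genes 1 was higher and 5 lower (4 higher and 9 lower with the block). Dll3, an inhibitory Notch ligand, was at 58.5, 63.2, 61.2 and 61.5 CPM without T3 and 24.7, 22.7, 19.2 and 21.7 CPM with it, a fall of -1.47 (SE 0.22, adjusted p = 3.43e-04), and was the only one of these 6 calls that was stable. Hey1, a Notch target, was at 71.6, 40.6, 38.7 and 38.0 CPM without T3 and 112, 70.02, 75.4 and 82.7 CPM with it, called at 0.85 (SE 0.22, adjusted p = 0.0233), but with adjusted p from 0.0533 to 0.1 without untreated replicate 2, 3 or 4 or without T3-treated replicate 1 or 4. Of 32 Wnt pathway genes 6 rose and 1 fell (10 higher and 4 lower of 31 tested with the block). The ligand Wnt4 was at 0.528, 0.676, 0.337 and 0.784 CPM without T3 and 2.91, 1.73, 1.96 and 2.51 CPM with it, a change of 1.97 (SE 0.24, adjusted p = 7.67e-05), Wnt5b (1.40, SE 0.21) and the secreted antagonist Sfrp5 (2.12, SE 0.38) rose, and the receptor Fzd9 fell (-0.81, SE 0.14).

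Among the cytoskeletal genes, the microtubule-stabilising protein of oligodendrocytes, Tppp, was at 130.3, 175, 194 and 187 CPM without T3 and 658, 1019, 941 and 914 CPM with it, a change of 2.36 (SE 0.41, adjusted p = 0.00163). Vimentin (Vim) was at 854, 793, 813 and 849 CPM without T3 and 2067, 1447, 1524 and 1592 CPM with it, a change of 1.003 (SE 0.16, adjusted p = 5.73e-04), and tau (Mapt) fell (-0.85, SE 0.18). Of 17 immediate early genes 4 rose and 1 fell (8 higher and 3 lower with the block), with Fos (1.93, SE 0.27) and Arc (1.51, SE 0.28) stable among the rises and the antiproliferative Btg2 (-0.89, SE 0.20) as the fall. Fam129a, a stress-induced regulator of translation, was at 90.0, 66.8, 74.0 and 75.2 CPM without T3 and 21.8, 15.3, 17.2 and 14.4 CPM with it, a fall of -2.15 (SE 0.17, adjusted p = 1.10e-06). Retinoid genes moved in both directions. Beside Rpe65 and Aldh1a1, Aldh1a7 (2.11, SE 0.24) rose and Dhrs3, a reductase that lowers retinoic acid, fell (-1.49, SE 0.19).

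**Figure D3:**
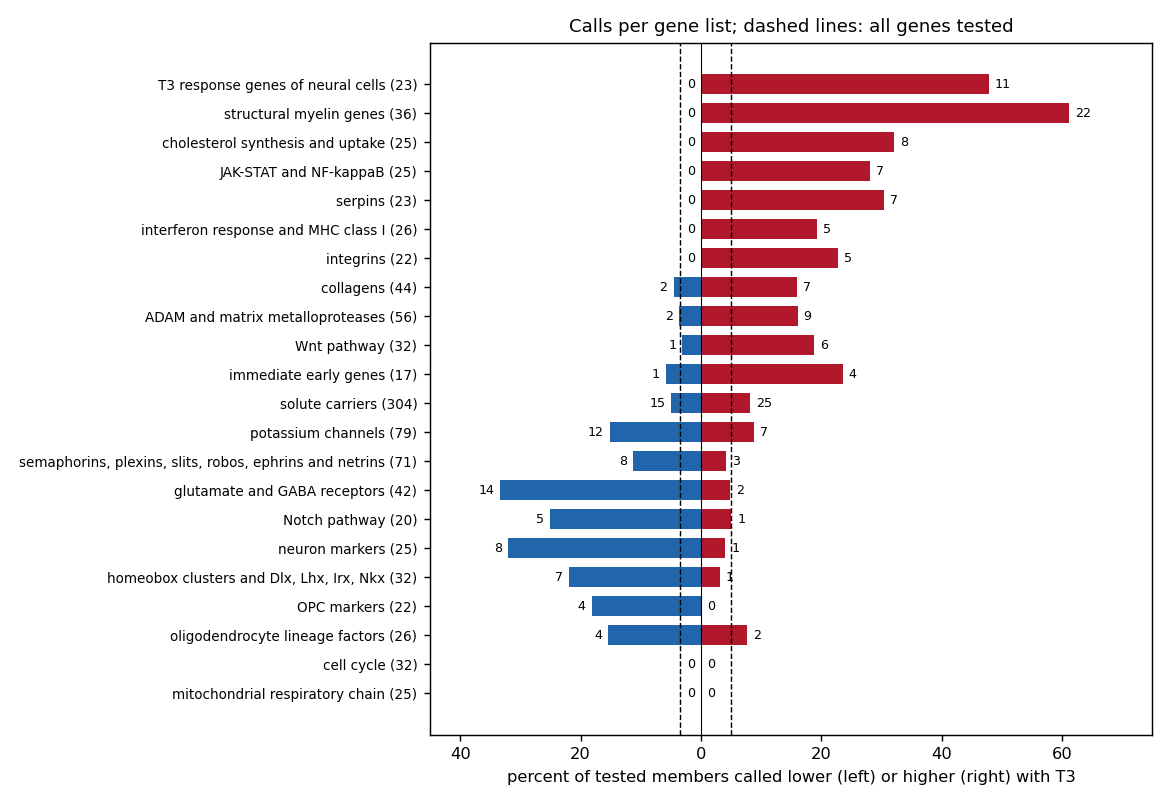
For 22 gene lists, bars give the percent of tested members (number in parentheses) called higher (red, right) or lower (blue, left) with T3, with the number of calls at the bar's end and dashed lines at the shares over all 19764 genes, 4.96% and 3.48%. Myelin (22 of 36) and T3 response genes (11 of 23) had the longest bars to the right and glutamate and GABA receptors (14 of 42) the longest to the left, and cell cycle and respiratory chain genes had none.

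Of 92 genes with ribosomal protein symbols 1 was called, lower (2 higher and 4 lower with the block), and it was Rps6ka6, a kinase caught by the symbol pattern, with a call lost at adjusted p of 0.0701 to 0.109 without any library but T3-treated replicate 1. Of 56 histone genes none was called by edgeR or by DESeq2 (1 higher and 2 lower at an unadjusted p under 0.05), but their median was -0.23, 6 of 56 lay above 0, and with the block 32 were called lower and 2 higher. Of 13 protein-coding genes of the mitochondrial genome 7 were tested, and none was called by either tool, also at an unadjusted p under 0.05. Of the 13, 6 had a mean under 0.1 CPM, and 5 were at 0 in all 8 libraries. Why these had so few counts was not tested. Over all 18 mitochondrially encoded genes tested, 1 was called higher, the transfer RNA mt-Tl1 (1.138, SE 0.30), and 1 lower, the transfer RNA mt-Ti (-0.81, SE 0.21), both at a few CPM or less and named after their values were seen. Neither call was stable. That of mt-Tl1 was lost in all fits without 1 library but those without untreated replicate 1 or T3-treated replicate 2 (adjusted p from 0.0553 to 0.0711) and without both replicate 1 libraries (adjusted p = 0.0996), and that of mt-Ti in all fits without 1 library but those without untreated replicate 2 or T3-treated replicate 1 (adjusted p from 0.0526 to 0.0860).

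Direction also went with gene type and level. Protein-coding genes had 5.86% called higher and 3.49% lower, and long non-coding genes 3.03% and 5.23%, with a median of -0.32. By level, genes at a mean of 100 CPM or more had 7.25% called higher and 0.927% lower, and genes under 1 CPM 1.09% and 2.49%, with a median of -0.45. 2 measures of the libraries moved alongside. The untreated libraries had counts in 35492 ± 1130 genes and the treated ones in 31594 ± 2741 (SD, n = 4), and 17.1% ± 0.483 and 13.5% ± 0.940 of reads lay outside annotated genes. Neither measure overlapped between the groups (exact permutation test, two-sided, p = 0.0286 for each, the smallest possible with 4 and 4 libraries, and adjusted p = 0.1 over 7 measures). Their part in the falls of low genes was not tested.

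Replicate 1 gave a repeat of the comparison in libraries that stood apart from the other 6. Genes were called in a fit without it (2688 of 20573, 13.1%), and their differences were then read in replicate 1. Of 1586 genes called higher in that fit and tested in both, 1409 (88.8%) had a difference above 0 in replicate 1, with a median of 0.42 against 0.77 in replicates 2 to 4. Of 1087 called lower, 932 (85.7%) were below 0 in replicate 1, with a median of -0.43 against -0.85. Of all genes tested, 46.4% were above 0 in replicate 1. The genes were chosen on replicates 2 to 4, so their median there is a description.

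**Figure D4:**
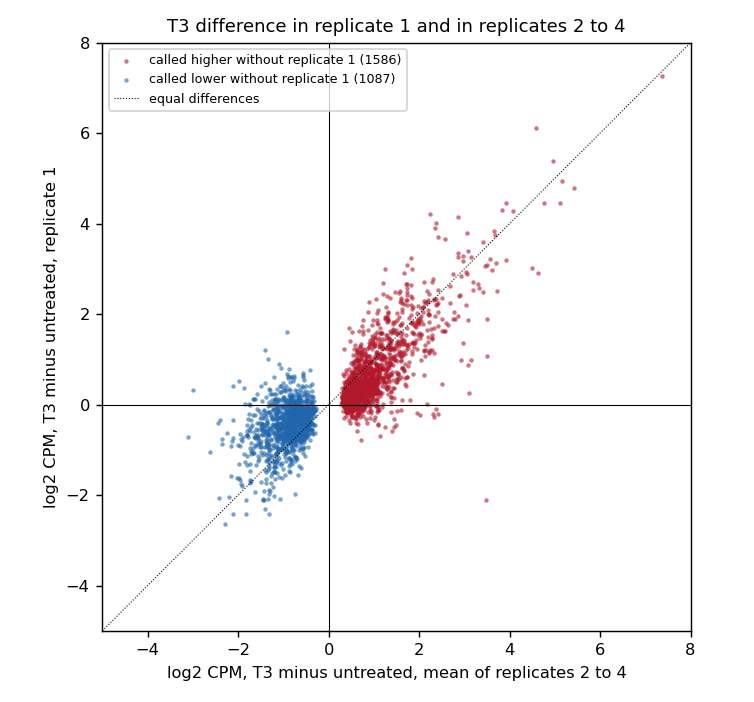
Each point is 1 gene called in the fit without replicate 1, with the T3 minus untreated difference in log2 CPM as the mean of replicates 2 to 4 on the horizontal axis and in replicate 1 on the vertical axis, and a dotted line where both are equal. Of 1586 genes called higher (red) 88.8% lie above 0 on the vertical axis and of 1087 called lower (blue) 85.7% lie below 0.

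The same treatment of the RXRgKO-labelled libraries, which have their own controls, called 555 genes (2.81%), 398 higher and 157 lower. Of the 1668 genes called in the WT-labelled libraries, 1556 (93.3%) had a fold change of the same sign there, 317 higher and 67 lower were called under both labels, and none was called in opposite directions. The share of the same sign over all genes tested is not given here, so the 93.3% stands without a baseline. The median change of the genes called higher was 0.54 there and of those called lower -0.37. These genes were chosen on the WT-labelled values, so smaller medians elsewhere are no test of a weaker response. Tested directly, the T3 change differed between the labels for 13 genes (0.0658%), and DESeq2 gave 112.

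The difference is given as the change in the RXRgKO-labelled minus that in the WT-labelled libraries. Among the 13, Fam135b was at 125, 73.2, 77.7 and 77.9 CPM without T3 and 28.9, 28.4, 29.5 and 25.9 CPM with it in the WT-labelled libraries, a fall of -1.65 (SE 0.17, adjusted p = 1.86e-05) there, against 0.21 under the other label, a difference of 1.86 (SE 0.24, adjusted p = 0.00601). Pcolce differed by -2.04 (SE 0.31, adjusted p = 0.0182), Thbs2 by -1.59 (SE 0.20, adjusted p = 0.00601) and the cholesterol enzyme Hsd17b7 by -1.27 (SE 0.19, adjusted p = 0.0143). All 3 rose more under the WT label on the log2 scale, but starting levels differed. Untreated means under the WT and RXRgKO labels were 1.12 and 7.0045 CPM for Pcolce and 3.53 and 9.82 CPM for Thbs2. They were 71.9 and 55.7 CPM for Hsd17b7 and 88.6 and 12.6 CPM for Fam135b. With T3 the means were 10.7 and 16.3 CPM for Pcolce and 18.1 and 16.7 CPM for Thbs2. For Hsd17b7 they were 249 and 80.4 CPM. The part of the untreated level in these differences was not tested. The phosphate carrier Slc20a2, at 57.8, 40.8, 44.4 and 42.9 CPM without T3 and 92.5, 108, 111 and 115 CPM with it, changed by 1.20 (SE 0.13, adjusted p = 2.12e-05) with T3 and differed by -1.08 (SE 0.18, adjusted p = 0.0327). Edil3, a matrix ligand of integrins, was at 25.7, 25.8, 29.8 and 27.4 CPM without T3 and 26.1, 21.9, 24.9 and 21.2 CPM with it and not called under the WT label (-0.21 (SE 0.10, adjusted p = 0.230)), and differed by 1.11 (SE 0.14, adjusted p = 0.00601).

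**Figure D5:**
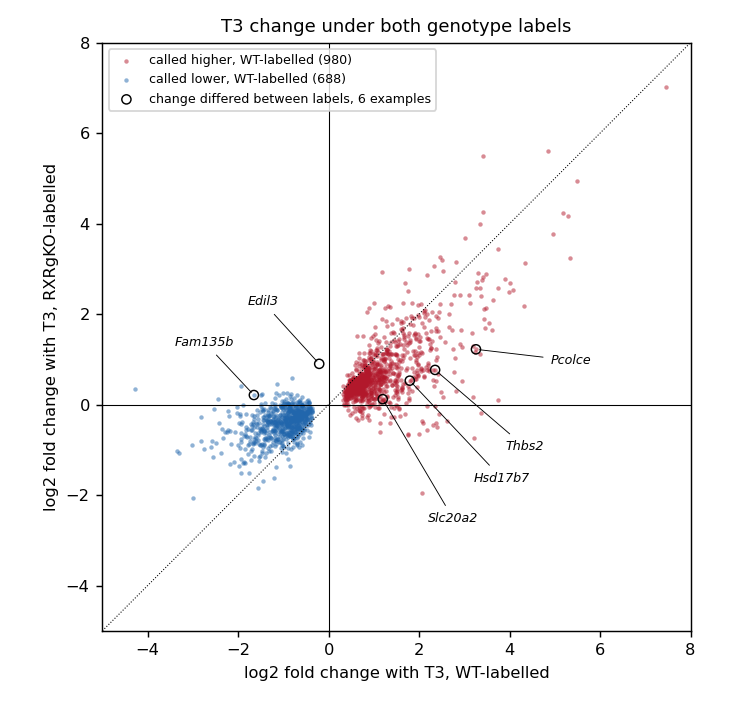
Each point is 1 of the 1668 genes called in the WT-labelled libraries (980 higher in red, 688 lower in blue), with its log2 fold change with T3 there on the horizontal axis and in the RXRgKO-labelled libraries on the vertical axis, and a dotted line where both are equal. Circles mark 6 of the 13 genes whose change differed between the labels (Edil3 is not among the 1668), and 93.3% of the points have the same sign on both axes.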

How the data were processed

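RNA, 200 ng per library, was selected for poly-A and made into dUTP-stranded libraries, per the labels' protocols. The submitters' processing notes name bcl2fastq 2.17.1.14, STAR 2.5.3a, HTSeq 0.6.1p1 and the mm10 build; how strand was handled in counting, and which annotation was counted, is not given in the sources used here. Raw counts for each Ensembl identifier were deposited by the authors, and 5 summary rows that name no gene were left out of library sizes and tests. Of all reads that the files account for, the WT-labelled libraries had 12.5% to 17.6% outside genes and 39.6% to 55.0% placed at several sites. Symbols came from GENCODE M21 (GRCm38), which held 55154 of 55335 identifiers, and promoters from RefSeq (GRCm38.p6).

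All 16 libraries entered 1 quasi-likelihood fit (edgeR 4.0.16, limma 3.58.1, R 4.3.3) with a mean per group, TMM factors, filterByExpr by group and robust dispersions, and T3 was tested as a contrast within the WT label. SE was obtained from the log2 fold change and its F statistic (absolute change over the root of F). The prior count for log2 CPM was 2. The replicate numbers were checked for pairing by the correlation of deviations from the group means. These were 0.648, 0.247, 0.211 and 0.164 for replicates 1 to 4. Replicate 1 alone was closest to the library of its own number in both directions. Between different numbers among replicates 2 to 4 the correlations ran from 0.150 to 0.269. Replicate 1 shifts the group means, so this check cannot show pairs within replicates 2 to 4. Xist and Ddx3y also set the treatments apart there. The main fit used no pairs, and only the replicate block, an alternative, took the numbers as pairs.

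Alternatives were DESeq2 1.42.0, its size factors within edgeR, other count filters (at least 1 CPM in 4 libraries, or none), non-robust dispersions, the 8 libraries alone, a replicate block and omitted libraries. A term for the library set, counts summed per set, autosomal genes alone, and a covariate for the share of reads in no gene were added after seeing the data. The 62 gene lists and families, the members and the named genes were chosen with earlier results of these data known, and list counts stand beside those over all genes. Named genes were Rxrg, sex-linked genes, the 12 largest rises and falls, the 10 of smallest p and of largest CPM change in each direction, up to 5 members of each list, the 2 highest markers of other cell types, 10 genes for the response difference and 5 long non-coding genes; those named beyond this rule, such as further list members, genes of low level and those kept with counts summed per set, were picked after seeing values. In simulated data (19153 genes, 200 of them changed) the fit for this comparison recovered 7.46%, 53.7% and 90.9% of genes changed by 1.5, 2 and 4-fold, with 4 false among 105 calls. The simulated libraries were drawn independently, without a replicate 1 that stands apart from the others. These rates therefore need not hold for the real libraries. Some genes are not reported here.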

Additional observations from a re-analysis of the deposited data

Results flagged for a closer look

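A library was marked when its gap to the nearest of the other 3 of its group exceeded Dixon's 95% limit, as a share of the group's range, which chance alone gives in about 1 of 20 groups. Of 544 pairs of a gene and a group examined, 136 (25.0%) had such a library, and in 130 of them it was replicate 1. Among the genes whose levels are given above, untreated replicate 1 stood above the other untreated libraries for Ddx3y (73.3 CPM), Col20a1 (20.6), Nt5e (4.92), Fam135b (125), Serpina3n (159), Cldn11 (669.8), Col16a1 (137), Hr (61.5), Klf9 (50.4), Mog (8.82), Hey1 (71.6), Stat3 (188), Col11a1 (139), Gfap (4728), Sox10 (824), Myrf (469.5), Olig2 (492) and Thra (641). It stood below them for Dlx1 (30.4 CPM), Gad2 (4.67) and Grin2b (18.01). Lineage factors, astrocyte and T3 response genes were thus among those that were high in this library before treatment, and interneuron genes among those that were low.

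With T3, replicate 1 stood above the other treated libraries for Clca3a1 (173 CPM), Gbp3 (49.6), Nt5e (37.3), Serpina3n (1383), Serpina3f (45.2), Serpina3m (47.2), Col16a1 (793), Col11a1 (914), Tnc (181), Klf9 (123), Opalin (34.9), Mog (49.8), Stat5a (11.3), Stat3 (466), Grm5 (148), Grin3a (33.1), Gfap (11207), Sox10 (797), Olig2 (440.4) and H19 (625). It stood below them for Dio3 (1.67 CPM), Hsd17b7 (186) and Ebp (29.6).

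The T3 change differed between the labels, as RXRgKO minus WT on the log2 scale and by edgeR's test of the difference, for Thbs2 (-1.59), Pcolce (-2.04), Hsd17b7 (-1.27), Fam135b (1.86), Slc20a2 (-1.08) and Edil3 (1.11), with adjusted p from 0.00601 to 0.0327.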

How the results depend on the processing

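Among 260 genes chosen by the naming rule, none of those called changed direction under an alternative run. Of the genes reported here that were called in neither fit, the log2 fold change took the opposite sign with the share of reads in no gene as a covariate for Top2a (0.197), Kdr (-0.0964), Hist1h1d (0.293), Elavl3 (-0.370), Slc1a3 (0.131), Cd68 (-0.0584), Sox10 (-0.515) and Cadm4 (-0.218), without both replicate 1 libraries for mt-Co1 (0.0150), and for Fabp7 with counts summed per set (-0.00631), a term for the set (-0.000769), at least 1 CPM in 4 libraries (-0.00207) and the block (-0.000843). With 1 library left out it ran over both signs, from -0.217 to 0.168 for mt-Co1, from -0.0995 to 0.138 for Fabp7, from -0.0230 to 0.148 for Cd68 and from -0.0986 to 0.608 for Sox10. The 1668 calls (980 higher, 688 lower) became 5084 (2777 and 2307) with the replicate block, 2688 (1591 and 1097) without both replicate 1 libraries, 6511 (3495 and 3016) with a term for the library set, 4744 (2190 and 2554) with the share of reads in no gene as a covariate, and 15 (15 and 0) with counts summed per set. With summed counts, 635 of 24773 genes tested were higher and 654 lower at an unadjusted p under 0.05 in edgeR. A share of 0.05 passes that limit when no gene has changed. With the covariate the split turned from 58.8% to 46.2% higher. DESeq2 called 1517 higher and 903 lower, and no low-count filter left 801 higher and 332 lower (70.7% higher). Leaving out 1 library gave 997 to 2475 calls, 609 to 1470 higher and 366 to 1005 lower; the causes were not tested. Of the genes called, 965 of 980 higher and 633 of 688 lower were also called with the block, 913 and 607 without both replicate 1 libraries, and 979 and 676 with DESeq2. Among the 260 named genes the block added a call for 11 and ended none, and counts summed per set ended 227. The response difference between labels had 13 calls and 112 with DESeq2.

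Annotated genes that were also tested overlap Thra (Nr1d1), Dio2 (Gm26512), Grin3a (Ppp3r2), Kcnk2 (A430027H14Rik) and Slc20a2 (Smim19, Gm17491), so their counts may share reads. Where both groups lay under a few CPM, as for Dio3 and Wnt4, or 1 group did, as for Trh, fold changes rest on few counts. In simulated data most changes of 1.5-fold were missed, so a gene that was not called may still have changed.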
